A study of Homo sapiens with 6 samples.

Results

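The 9 genes described here encode ligands of the TGF-beta superfamily (BMP2, INHBA, TGFB1 and TGFB2), the docking receptor of latent TGF-beta (LRRC32), the inhibitory SMAD7 and the immediate transcriptional targets ID1, ID2 and ID3. They were found by symbol among 16574 genes measured by RNA sequencing, and all 9 were present. They were chosen by a list drawn up with results of these data known, namely the FPKM difference between treatments within each replicate number, so that difference is given for them as values without a test. The cells were Nthy-ori 3-1, a human thyroid follicular epithelial line immortalised with SV40 large T antigen, of wild-type genotype in every library. One group of 3 libraries came from cells kept for 27 days in 2.5 µM BDE209 (decabromodiphenyl ether, a brominated flame retardant), and the other 3 from cells kept for the same time in an equal volume of the solvent DMSO. All libraries come from 1 line. The labels leave unsaid whether replicates were grown separately, and p-values then reflect no more than the spread among these libraries, possibly a technical one.

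Ligands of this superfamily are secreted as dimers and bind pairs of serine/threonine kinase receptors. TGF-beta and activin receptors phosphorylate SMAD2 and SMAD3, and BMP receptors phosphorylate SMAD1, SMAD5 and SMAD9; either set enters the nucleus with SMAD4. TGF-beta is held inactive outside the cell by its own propeptide until integrins or proteases free it, and in thyroid epithelium it is known as a brake on growth and as an inducer of mesenchymal change. ID proteins are helix-loop-helix partners that lack a DNA-binding region and block basic helix-loop-helix factors, and their genes are classical BMP targets.

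Levels are FPKM, fragments scaled to the length of the transcript and to the size of the library, and so compare genes per length. The FPKM of a library summed to 567810 to 829739, and 14630 to 14914 genes were listed above 0. The 2 libraries numbered 2 stood apart from the others: ribosomal protein genes took 31.8% of their summed FPKM in BDE209 and 31.3% in DMSO, against 18.8% to 21.3% elsewhere, and values are therefore given per replicate number. The defining follicular genes were nearly absent. Summed over 7 markers they reached 1.34 to 2.04 FPKM in BDE209 and 1.62 to 1.83 FPKM in DMSO, the iodide transporter SLC5A5 being at 0 in most libraries. The 6 epithelial markers summed to 118.85 to 155.02 FPKM in BDE209 and 150.49 to 178.72 FPKM in DMSO, nearly all from the keratins KRT7 and KRT18, while the cadherin CDH1 was at 0 in all libraries but DMSO replicate 3. The 8 mesenchymal markers summed to 8757.02 to 11508.59 FPKM in BDE209 and 9401.01 to 13491.17 FPKM in DMSO, mostly from the intermediate filament VIM. The epithelial sum and the mesenchymal sum were both lower in BDE209 than in DMSO in every pair. Single mesenchymal markers went both ways: VIM was lower in BDE209 in every pair, and the proteoglycans DCN and LUM were higher in every pair. The part of these markers in the values that follow was not tested. In such bulk samples, fewer cells of a type and less RNA per cell cannot be told apart.

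BMP2 and LRRC32 were higher in BDE209 than in DMSO within every replicate number, and the 3 ID genes were lower in replicates 1 and 3 but higher in replicate 2. TGFB1 was a little lower in every pair. INHBA and SMAD7 were slightly higher in replicates 1 and 3 and lower in replicate 2, and TGFB2 was level in replicates 1 and 3 and lower in replicate 2. For scale, 21.9% of the 11223 genes tested were higher and 17.3% lower in all 3 pairs, 17.7% were lower in pairs 1 and 3 and higher in pair 2, and 15.7% were the reverse of that. Since that contrast chose the genes, nothing is read from their counts of 2, 1, 3 and 3.

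**Figure D1:**
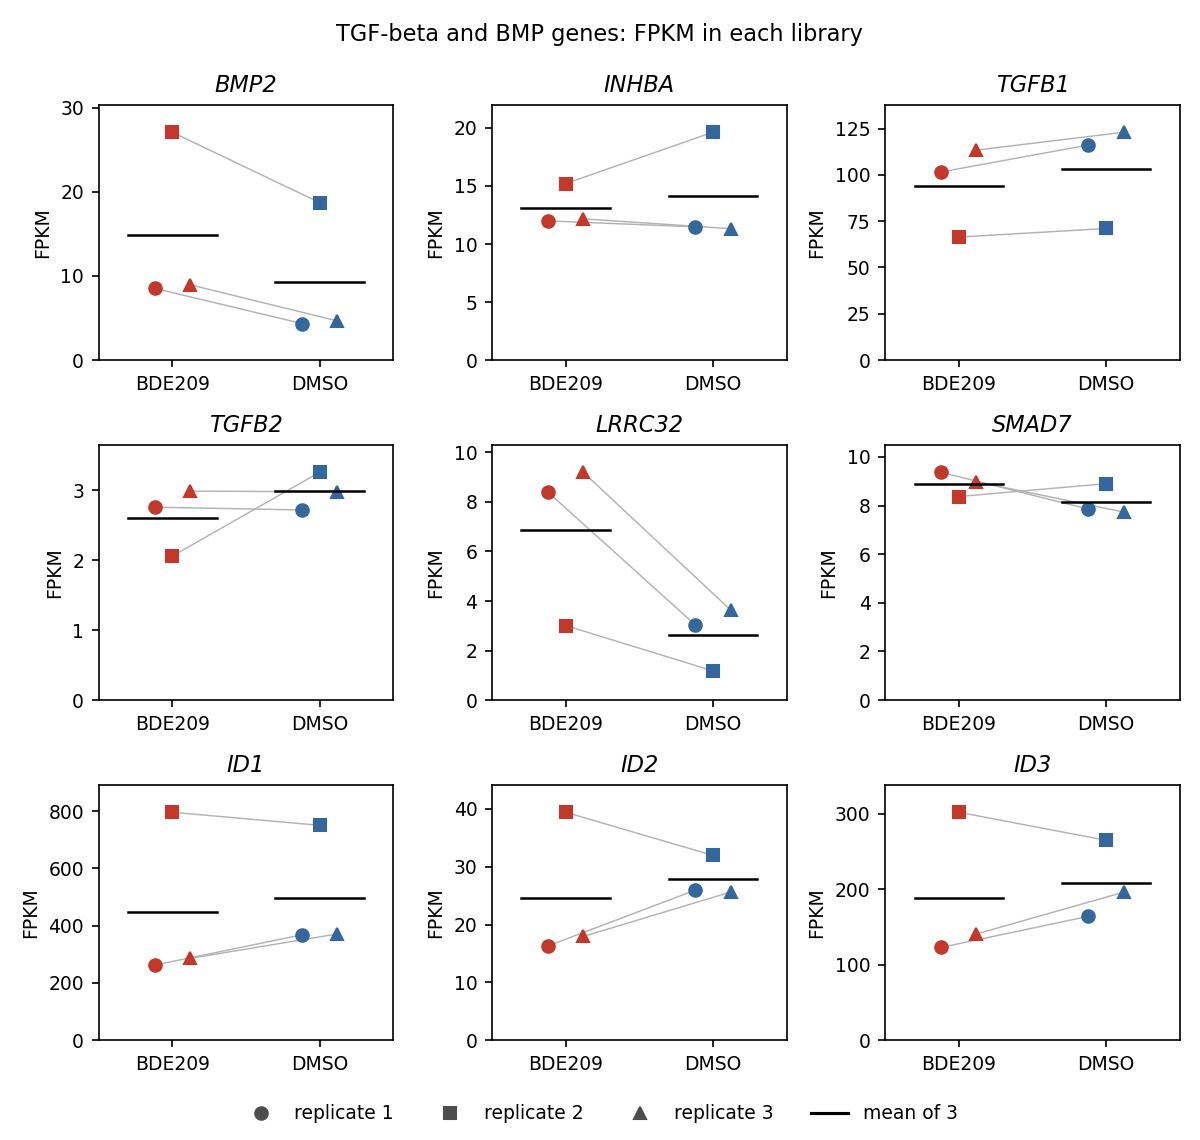
FPKM of each of the 9 genes in the 3 BDE209 and 3 DMSO libraries; symbols mark the replicate number, grey lines join libraries with the same number and black bars are means. BMP2 and LRRC32 were higher in BDE209 along every line, while the replicate 2 squares lie apart from the other libraries for most genes.

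Among the ligands, BMP2, a BMP that signals through SMAD1, SMAD5 and SMAD9, read 8.52, 27.07 and 8.95 FPKM in BDE209 replicates 1, 2 and 3, against 4.34, 18.71 and 4.65 FPKM in DMSO. Each BDE209 library was above the DMSO library of its number, but the groups overlapped because DMSO replicate 2 was above BDE209 replicates 1 and 3. The ratios were 1.96, 1.45 and 1.92, and the group values 14.8 ± 10.6 and 9.23 ± 8.21 FPKM (SD, n = 3). The mean difference was 0.72 on the log2(FPKM + 1) scale, which understates changes of low values, with a standard error of 0.642 without and 0.0835 with the replicate number as a block. Leaving out 1 library moved it widely, to 0.21 without BDE209 replicate 2, 0.39 without DMSO replicate 1, 0.43 without DMSO replicate 3 and 1.33 without DMSO replicate 2. Those fits had no replicate block and left the replicate numbers uneven between treatments, so the shift of replicate 2 enters them. The differences within pairs were 0.83, 0.51 and 0.82. Most of the spread of BMP2 thus lay between replicate numbers.

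INHBA, whose product dimerises to activin A, read 11.99, 15.20 and 12.17 FPKM in BDE209, against 11.48, 19.63 and 11.32 FPKM in DMSO. The 4 libraries of replicates 1 and 3 lay within 11.32 to 12.17 FPKM, and the DMSO library of replicate 2 was the highest of all. The pairs differed by 0.06, -0.35 and 0.10 log2 units, with a mean of -0.06 (SE 0.232).

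TGFB1, the main TGF-beta isoform, was the most abundant of the 4 ligands in every library, at 101.62, 66.43 and 113.42 FPKM in BDE209, against 116.16, 71.07 and 123.06 FPKM in DMSO. The ratios were 0.875, 0.935 and 0.922, while the 2 replicate 2 libraries stood far below the others in either treatment. The mean log2 difference was -0.13 (SE 0.296; 0.0519 with the block). Exons of TGFB1 overlap those of HNRNPUL1 on the opposite strand, which read 118 to 171 FPKM. Use of strand in counting is not given in the sources used here, so reads within the shared stretch cannot be told apart. The length of that stretch was not measured.

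TGFB2, an isoform that also acts through the TGF-beta receptors, read 2.76, 2.06 and 2.99 FPKM in BDE209, against 2.72, 3.26 and 2.98 FPKM in DMSO. Replicates 1 and 3 were alike between treatments, with ratios of 1.01 and 1.00, and replicate 2 had a ratio of 0.632. TGFB1 exceeded TGFB2 by 32.2 to 37.9 times in BDE209 and by 21.8 to 42.7 times in DMSO.

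The order of the 4 ligands was TGFB1, INHBA, BMP2 and TGFB2 in all DMSO libraries and in BDE209 replicates 1 and 3, and BMP2 stood above INHBA in BDE209 replicate 2 alone. INHBA was above BMP2 in replicates 1 and 3, with BMP2 to INHBA ratios of 0.711 and 0.735 in BDE209 against 0.378 and 0.411 in DMSO. In replicate 2 the ratio was 1.78 in BDE209 and 0.953 in DMSO. BMP4, the closest relative of BMP2, was above BMP2 in replicates 1 and 3 and below it in replicate 2, in both treatments: BMP2 to BMP4 ratios were 0.237 and 0.244 in BDE209 replicates 1 and 3 and 0.163 and 0.171 in the DMSO ones, against 2.11 in BDE209 and 1.62 in DMSO in replicate 2.

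LRRC32 (GARP), which tethers latent TGF-beta to the cell surface, had the largest ratios of the 9 genes. It read 8.40, 3.01 and 9.20 FPKM in BDE209, against 3.04, 1.18 and 3.64 FPKM in DMSO. The ratios of 2.76, 2.55 and 2.53 were alike in all pairs, although the level in replicate 2 was the lowest of each treatment. The groups overlapped only through BDE209 replicate 2, which lay below DMSO replicates 1 and 3. Group values were 6.87 ± 3.37 and 2.62 ± 1.28 FPKM (SD, n = 3), and the mean log2 difference was 1.08 (SE 0.446; 0.0908 with the block). TGFB1 exceeded LRRC32 by 12.1, 22.1 and 12.3 times in BDE209 replicates 1, 2 and 3, against 38.2, 60.2 and 33.8 times in DMSO. An antisense gene overlaps LRRC32 and was not analysed here.

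LRRC32 is best known from regulatory T cells, platelets and endothelium, so markers of these cells were read beside it. The regulatory T cell genes measured, FOXP3 and CD4 of 5 listed, summed to 0.08 to 0.13 FPKM in BDE209 and 0 to 0.12 FPKM in DMSO. Of 4 platelet genes, 3 were measured and summed to 0.12 to 0.15 FPKM in BDE209 and 0.07 to 0.26 FPKM in DMSO, with PF4 at 0 in all libraries but 1. The 4 endothelial genes summed to 2.66 to 3.36 FPKM in BDE209 and 2.22 to 2.47 FPKM in DMSO, mostly from the VEGF receptor KDR. CDH5, the endothelial cadherin, read at most 0.06 FPKM in BDE209 and 0.09 FPKM in DMSO. KDR and PECAM1 were higher in each BDE209 library than in any DMSO library. For KDR the margin was narrow, at 2.16 FPKM in BDE209 replicate 2 against 2.14 FPKM in DMSO replicate 2. Among the genes tested, of which PECAM1 was not one, 3.22% were so placed. PECAM1 was low, at 0.44 to 0.48 FPKM in BDE209 and 0.25 to 0.3 FPKM in DMSO. CDH5 went the other way, being lower in BDE209 in every pair, and VWF read at most 0.03 FPKM. The part of these genes in the LRRC32 values was not tested.

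SMAD7, which blocks type I receptors and is itself induced by the signal, read 9.37, 8.37 and 8.98 FPKM in BDE209, against 7.85, 8.90 and 7.73 FPKM in DMSO. It was the steadiest of the 9 genes across libraries. The ratios were 1.19, 0.940 and 1.16, and the groups overlapped in replicate 2. Group values were 8.91 ± 0.504 and 8.16 ± 0.644 FPKM (SD, n = 3).

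**Figure D2:**
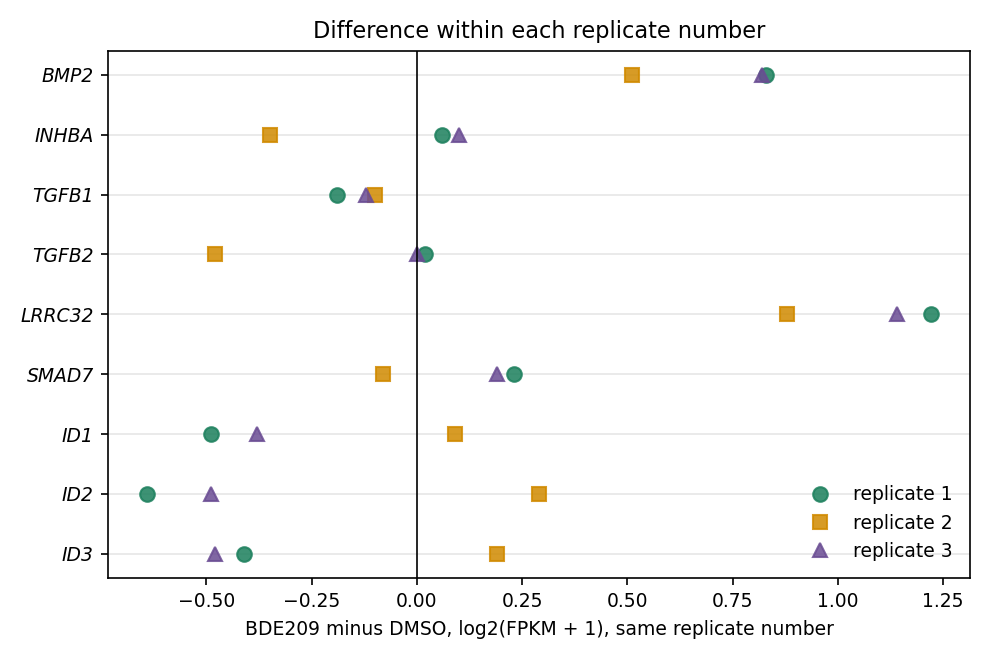
Difference between BDE209 and DMSO on the log2(FPKM + 1) scale for each gene (rows) within replicates 1, 2 and 3 (symbols). LRRC32 ran from 0.88 to 1.22 and BMP2 from 0.51 to 0.83; ID1, ID2 and ID3 lay at -0.64 to -0.38 in replicates 1 and 3 and at 0.09 to 0.29 in replicate 2.

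ID1, ID2 and ID3 shared one pattern. ID1 read 261.99, 796.25 and 285.42 FPKM in BDE209, against 367.83, 750.50 and 370.86 FPKM in DMSO. ID2 read 16.29, 39.43 and 17.93 FPKM in BDE209, against 25.94, 31.97 and 25.61 FPKM in DMSO. ID3 read 122.73, 301.73 and 140.53 FPKM in BDE209, against 163.89, 264.56 and 195.86 FPKM in DMSO. In all 3 genes the replicate 2 libraries were the highest of their treatment, and the BDE209 library exceeded the DMSO one there alone.

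In replicates 1 and 3 the BDE209 to DMSO ratios were 0.712 and 0.770 for ID1, 0.628 and 0.70 for ID2, and 0.749 and 0.718 for ID3; in replicate 2 they were 1.06, 1.23 and 1.14. Summed over the 3 genes, FPKM were 401.01, 1137.41 and 443.88 in BDE209 and 557.66, 1047.03 and 592.33 in DMSO. The make-up of the sum changed little, ID1 giving 64.3% to 70.0% of it in BDE209 and 62.6% to 71.7% in DMSO. In every library the order among all 9 genes began with ID1, ID3, TGFB1 and ID2. An antisense gene overlaps ID2 and was not analysed here.

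Because the ID genes shared a pattern, the 250 bases before each transcription start are shown, from RefSeq on GRCh38.p14, written in the direction of transcription. Of the 9 genes, 7 were matched in the promoter table; BMP2 and LRRC32 were not. Capitals mark matches, on either strand, to CAGAC (a SMAD-binding box), GGCGCC (known to bind BMP-type SMADs), ACGTG (the core of hypoxia-response and E-box elements), CCAAT and TATAAA.
ID1, chr20:31605039-31605288, plus strand: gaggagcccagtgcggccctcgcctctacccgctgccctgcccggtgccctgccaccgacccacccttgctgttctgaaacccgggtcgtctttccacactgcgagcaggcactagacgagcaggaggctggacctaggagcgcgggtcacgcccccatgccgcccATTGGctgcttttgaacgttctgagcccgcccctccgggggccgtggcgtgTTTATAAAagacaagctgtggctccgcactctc
ID2, chr2:8681806-8682055, plus strand: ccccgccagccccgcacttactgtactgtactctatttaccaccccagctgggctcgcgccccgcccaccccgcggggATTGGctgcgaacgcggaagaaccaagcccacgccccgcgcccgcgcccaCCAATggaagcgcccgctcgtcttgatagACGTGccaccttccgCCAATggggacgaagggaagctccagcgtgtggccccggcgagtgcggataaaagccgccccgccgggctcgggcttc
ID3, chr1:23559502-23559751, minus strand: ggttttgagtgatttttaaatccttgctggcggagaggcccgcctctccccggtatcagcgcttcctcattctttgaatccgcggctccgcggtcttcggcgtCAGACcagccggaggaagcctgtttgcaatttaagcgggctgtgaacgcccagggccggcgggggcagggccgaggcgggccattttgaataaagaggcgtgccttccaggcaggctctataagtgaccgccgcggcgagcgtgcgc

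The 3 windows were rich in G and C, at 66.0%, 69.2% and 62.0% for ID1, ID2 and ID3, against a median of 58.0% over all 35116 windows of this length. ID1 held 1 CCAAT match, 84 bases before the start, and a TATAAA element at 31 bases, read also on the other strand at 33 bases. ID2 held 3 CCAAT matches, at 172, 122 and 78 bases, and 1 ACGTG match at 93 bases. ID3 held 1 CAGAC match at 147 bases. No letter string searched was common to the 3 windows, and GGCGCC was in none of them. Sequence outside these windows was not searched, so sites further from the start would be missed. Over all windows, 32.0% held CCAAT, 10.7% TATAAA, 38.0% CAGAC, 18.5% ACGTG and 16.4% GGCGCC.

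The replicate number, a factor that the choice of genes did not use, was tested with treatment in the fit. By limma's moderated F test with Benjamini-Hochberg adjustment over all genes, 6 of the 9 genes differed between replicate numbers, as did 60.2% of all genes tested. The adjusted p-values here and in the next paragraph belong to this F test of any difference among replicate numbers. The differences printed beside them, replicate 2 minus replicates 1 and 3, had no test of their own. Replicate 2 stood above replicates 1 and 3 by 1.69 log2 units for BMP2 (adjusted p = 0.000252), 1.28 for ID1 (0.00137), 0.88 for ID3 (0.00937) and 0.52 for INHBA (0.0164). It stood below them by -1.14 for LRRC32 (0.000655) and -0.71 for TGFB1 (0.000506). ID2, at 0.73, missed the threshold (adjusted p = 0.066), as did TGFB2 at -0.10 (0.679) and SMAD7 at 0.03 (0.904).

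The median of all genes stood at -0.10 in this contrast. With FPKM rescaled to the same sum in every library that median was -0.55, and the call of 6 genes then held SMAD7 (-0.44, adjusted p = 0.0161) and TGFB2 (-0.50, 0.0386) in place of INHBA (0.05, 0.864) and ID3 (0.38, 0.076). BMP2 and ID1 above, and LRRC32 and TGFB1 below, passed under each of the 3 scalings run. The shift followed length: with the genes split by summed exon length into 4 groups of one size, its median was 0.28 in the group of shortest and -0.35 in that of longest genes. ID1, ID2 and ID3, with 1233, 2205 and 1797 bases, fall in the shortest group, but so does TGFB1 with 3238 bases, which went the other way. BMP2 (3601 bases) and LRRC32 (4459 bases) are together in the next group and lay on opposite sides. The part of length in these values was not tested.

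**Figure D3:**
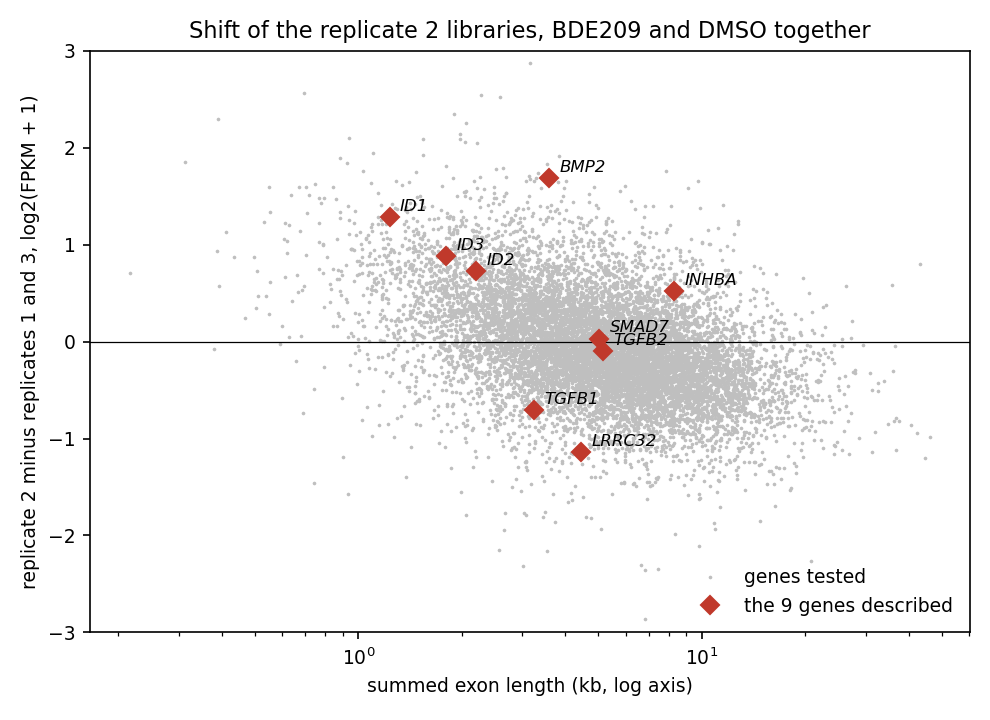
Replicate 2 minus replicates 1 and 3, averaged over BDE209 and DMSO on the log2(FPKM + 1) scale, against summed exon length in kb (log axis), for the genes tested (grey; 2 lie beyond the axis) and the 9 genes (red). BMP2 at 1.69 and LRRC32 at -1.14 lay far apart at like lengths.

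The rest of the pathway was read from a list of 130 genes in 9 roles. It was drawn up from general knowledge, but with earlier results of these data known. Of these genes 119 were found, 86 passed the filter of 1 FPKM in 3 libraries, and 11 were not analysed here. In all 6 libraries limma called 0 of the 86 and 0% of all genes (3 of the 86 and 176 of all had an unadjusted p under 0.05), and without its trend and robust options it also called 0 (4 and 186). With the replicate block it again called 0 of the 86 and 0% of all (28 and 1847). Of the 86, 23.3% were higher and 23.3% lower in all 3 pairs, against 21.9% and 17.3% of all genes. All BDE209 values lay above all DMSO values in 4 genes, TGM2, TSC22D1, SNAI2 and DLX2, and below them in 2, TGFB3 and FSTL3, against 3.22% and 2.00% of all genes.

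With replicates 1 and 3 alone, 11 of the 86 genes rose and 9 fell by limma at an adjusted p under 0.05, or 12.8% and 10.5%, against 4.47% and 2.33% of all genes (6.81% in either direction). With the replicate block in that fit, 29 rose and 21 fell, against 14.1% and 14.0% of all genes (28.0% in either direction). The median log2 difference of the 86 was 0.06 there, against 0.00 over all genes. These libraries were singled out with earlier results known, and hold 2 samples per treatment. In the paragraphs that follow, "rose" and "fell" refer to the fit of replicates 1 and 3 without the block.

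Among ligands, 2 of 4 BMP-type genes rose and none fell. GDF6, a BMP-type ligand of skeletal patterning, read 5.18 and 5.68 FPKM in BDE209 replicates 1 and 3, against 2.40 and 2.69 FPKM in DMSO (log2 difference 0.86, adjusted p = 0.00429); replicate 2 read 1.07 in BDE209 and 1.00 FPKM in DMSO. BMP4 read 35.93 and 36.62 FPKM in BDE209, against 26.60 and 27.13 FPKM in DMSO (0.42, adjusted p = 0.0183), with 12.83 FPKM in BDE209 and 11.53 FPKM in DMSO in replicate 2. BMP4 was thus higher in all pairs, as BMP2 was. Of 3 TGF-beta and activin ligands, TGFB3 fell, with 1.17 FPKM in BDE209 replicates 1 and 3, against 1.90 and 2.11 FPKM in DMSO (-0.47, adjusted p = 0.0466); it differed by -0.11 in replicate 2. INHBE, an inhibin beta subunit and the most abundant of these by the mean of all libraries, read 13.81, 2.45 and 13.69 FPKM in BDE209, against 14.72, 1.77 and 15.48 FPKM in DMSO. In replicate 2 GDF11, a relative of myostatin, was above it, at 4.91 FPKM in BDE209 and 5.5 FPKM in DMSO.

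Of 12 genes of latency and activation, 2 rose and 1 fell. LTBP2, an elastic fibre member of the latent TGF-beta binding protein family, fell by 0.96 log2 units (adjusted p = 0.00198), with 55.49, 24.48 and 62.44 FPKM in BDE209, against 109.37, 29.34 and 121.71 FPKM in DMSO; it was lower in replicate 2 by less, a difference of -0.25. The integrin subunits that free latent TGF-beta, ITGAV and ITGB8, rose by 0.46 (adjusted p = 0.0203) and 0.57 (adjusted p = 0.0323), and in replicate 2 differed by 0.16 and -0.13. ITGB8 was low, at 2.52, 0.37 and 2.08 FPKM in BDE209, against 1.27, 0.50 and 1.16 FPKM in DMSO. THBS1, an activator and the most abundant of the group, read 458.47, 249.96 and 472.28 FPKM in BDE209, against 360.68, 327.25 and 388.40 FPKM in DMSO, and was not called (adjusted p = 0.0606).

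Of 8 extracellular antagonists, 1 rose and 2 fell. BMPER, which binds BMPs, rose by 0.62 (adjusted p = 0.0478) but differed by -0.14 in replicate 2. FST, which sequesters activin, fell by 0.52 (adjusted p = 0.0290) and differed by 0.14 in replicate 2. The sign of FST thus turned in replicate 2, as those of the ID genes did. GREM1, an antagonist of BMP2 and BMP4, was far more abundant than either, at 476.67, 379.98 and 422.88 FPKM in BDE209, against 464.04, 364.22 and 437.53 FPKM in DMSO, and was not called (adjusted p = 0.983).

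None of the 10 receptor genes and none of the 7 SMAD genes and partners was called without the block; with it, 1 receptor rose and 2 fell, and 2 of the SMAD group rose. TGFBR2, the type II TGF-beta receptor, was the most abundant receptor, at 158.12, 95.19 and 155.06 FPKM in BDE209, against 154.73, 89.10 and 160.25 FPKM in DMSO. SMAD3 led the SMADs, at 27.90, 20.59 and 27.50 FPKM in BDE209, against 22.45, 21.30 and 22.05 FPKM in DMSO (adjusted p = 0.0543). Of 13 intracellular inhibitors, 2 rose: the ubiquitin ligase NEDD4L by 0.48 (adjusted p = 0.0332) and PMEPA1, a TGF-beta-induced inhibitor of SMAD2 and SMAD3, by 0.33 (adjusted p = 0.0364). In replicate 2 they differed by 0.00 and 0.18. STRAP, a SMAD7 partner, was the most abundant of them in every library but BDE209 replicate 3, where PMEPA1 stood at 75.57 FPKM; STRAP read 75.19 to 84.48 FPKM in BDE209 and 79.07 to 82.21 FPKM in DMSO.

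TGF-beta targets went both ways, with 3 of 22 rising and 5 falling. CCN2 (connective tissue growth factor) fell most, with 60.55, 136.86 and 69.65 FPKM in BDE209, against 123.91, 155.53 and 137.31 FPKM in DMSO (-1.0, adjusted p = 0.00198). DACT1, an antagonist of Wnt signalling, fell by 0.48 (adjusted p = 0.0313). TGM2, a cross-linking transglutaminase, rose by 0.71 (adjusted p = 0.0112), with 11.04, 7.48 and 12.01 FPKM in BDE209, against 6.05, 6.44 and 7.34 FPKM in DMSO. In replicate 2, CCN2, DACT1 and TGM2 kept their direction at -0.18, -0.07 and 0.19. TGFBI, the most abundant target, read 2228.39 to 2285.12 FPKM in BDE209 and 2231.28 to 2531.49 FPKM in DMSO and was not called (adjusted p = 0.333). Of 7 further BMP targets, the osteogenic factor RUNX2 rose by 0.35 (adjusted p = 0.0483) and none fell. With the replicate block in that fit, 3 of the 7 rose and 4 fell, against 14.1% and 14.0% of all genes. The sign of RUNX2 turned in replicate 2, with a difference of -0.18. The homeobox gene MSX1 and the T-box gene TBX3 were the most abundant in 3 libraries each. Without the block they were not called (adjusted p = 0.372 and adjusted p = 0.203).

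**Figure D4:**
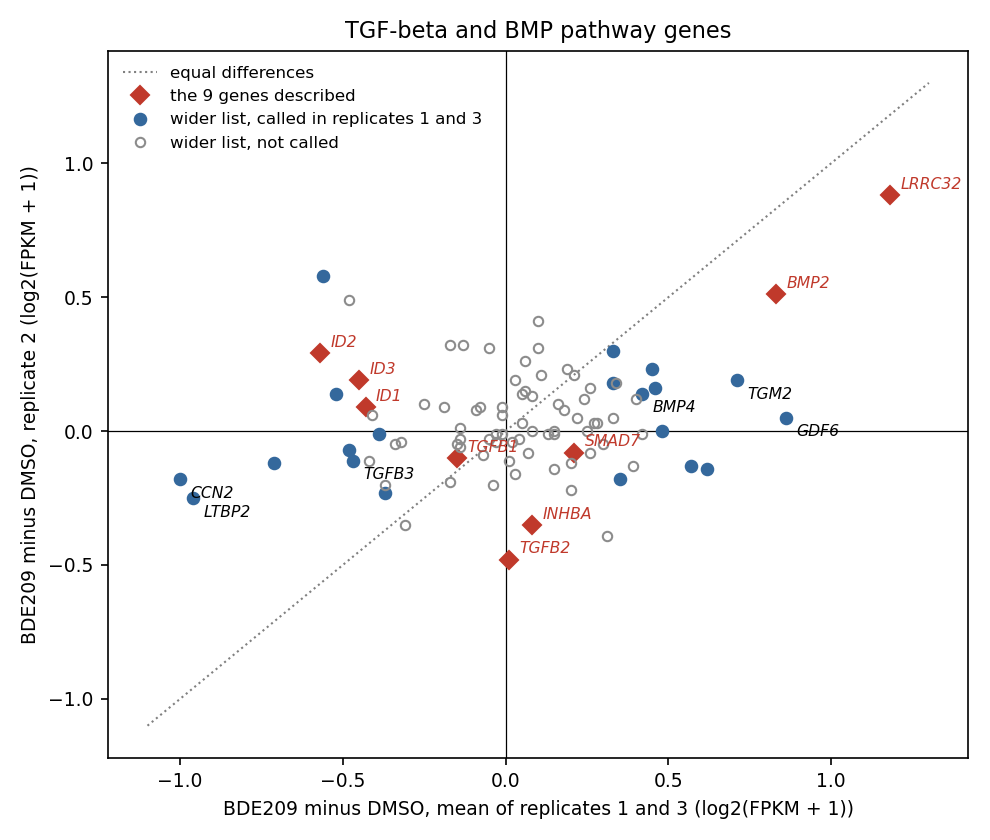
Difference between BDE209 and DMSO in replicate 2 (y axis) against the mean of replicates 1 and 3 (x axis), both on the log2(FPKM + 1) scale, for the 9 genes (red) and the 86 others of the pathway (blue where called in replicates 1 and 3, open where not); the dotted line marks equal differences. CCN2 and LTBP2 lie at -1.0 and -0.96 on the x axis but at -0.18 and -0.25 on the y axis, and the ID genes lie in the upper left.

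The genes whose pattern was nearest to each of the 9 were sought over the 6 libraries, by the root mean square distance between log2(FPKM + 1) values centred on each gene's mean. The libraries share the replicate 2 shift, and nearness includes it. For LRRC32 the nearest was IRF1, an interferon-regulated transcription factor, at a distance of 0.184, with 16.63, 5.84 and 16.49 FPKM in BDE209, against 8.65, 3.89 and 7.83 FPKM in DMSO. The next was UBA7, the activating enzyme of ISG15, at 0.227. For BMP2 the nearest were ESM1, an endothelial proteoglycan, at 0.197, and FAM162A, a hypoxia-responsive gene, at 0.237; ESM1 read 23.53, 60.19 and 20.48 FPKM in BDE209, against 16.35, 49.23 and 13.92 FPKM in DMSO. LRRC32 and BMP2 themselves lay 0.77 and 0.88 from their own means.

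ID1 lay nearest to ATP5MC1, a subunit of ATP synthase, at 0.045, and to the cytokine gene IL11 at 0.069. IL11, a TGF-beta target, read 8.26, 22.94 and 7.97 FPKM in BDE209, against 10.89, 23.03 and 11.02 FPKM in DMSO. ID2 was nearest to RPP40 (0.082) and OIP5 (0.095), ID3 to RANGRF (0.07) and S100A6 (0.081), TGFB1 to DPP9 (0.015) and LMNA (0.026), INHBA to CTSA (0.029) and INO80B (0.05), SMAD7 to PALB2 (0.016) and GMPR2 (0.017), and TGFB2 to ENTPD7 (0.069) and TYMSOS (0.07). These distances are to be read beside how far each gene lay from its own mean. That was 0.63 for ID1, 0.42 for ID2, 0.46 for ID3 and 0.35 for TGFB1. It was 0.27 for INHBA, 0.15 for TGFB2 and only 0.09 for SMAD7. No gene among the 9 was one of the 2 nearest to another.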

How the data were processed

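The deposited files give 1 FPKM value per gene and library, to 2 decimals, under human Ensembl identifiers, per the file headers. Bowtie 0.12.2, Bowtie2, RSEM and the mouse builds mm8 and mm10 are named, per the submitters' processing notes. No human build, use of strand or handling of multiply matching reads is stated there. Depth in fragments is unknown, but the spacing of low values of short genes put the worth of 1 fragment at 1.25 and 1.59 times that of DMSO replicate 1 in BDE209 and DMSO replicate 3, and at 0.95 to 1.0 times in the others.

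Of 16614 rows per file, 40 rows of 20 identifiers listed 2 times were left out; 16535 of the 16574 genes matched a symbol. Limma 3.58.1 (R 4.3.3, trend and robust) was run on log2(FPKM + 1) over 11223 genes with FPKM of at least 1 in 3 libraries. Genes were called where the Benjamini-Hochberg adjusted p was under 0.05. Limma was also tested on simulated data. The simulated treatment test held no replicate 2 shift, so it gives no measure of power for the fit over all 6 libraries. All 9 genes passed the filter. Lengths are summed exons of GENCODE v29. Samples were paired by replicate number, and the labels do not say what a number shares. Same-numbered libraries deviated together from their group means across genes (r = 0.738, 0.875 and 0.824 for replicates 1, 2 and 3). So did BDE209 replicate 1 with DMSO replicate 3 (r = 0.646) and BDE209 replicate 3 with DMSO replicate 1 (r = 0.644). The check thus matches replicate 2 across treatments but hardly tells replicate 1 from replicate 3. The genes, lists, tests and the leaving out of replicate 2 were chosen with earlier results of these data known. From each role, up to 4 called genes (largest difference first) and the most abundant were named; TSC22D1, SNAI2, DLX2, FSTL3, GDF11 and TBX3 were named after their values were seen. Some listed genes are counted but not reported here by name.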

Additional observations from a re-analysis of the deposited data

How the results depend on the processing

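Over all 6 libraries limma called 0 genes between BDE209 and DMSO, and 0 with the replicate block, a pseudocount of 0.1, no filter, a minimum of 5 FPKM or either rescaling. With replicates 1 and 3 alone it called 764 genes and 20 of the wider pathway, and with a replicate block in that fit, added after seeing the data, 3146 and 50; the share of calls that were higher was 65.7% without and 50.2% with that block. The cause was not tested. Leaving out 1 library at a time gave 0 to 1 genes (C1QTNF1, without BDE209 replicate 2) and 0 to 0 pathway genes. For the replicate number, leaving out 1 library gave 5190 to 7895 genes and 6 to 8 of the 9; ID2 was called without DMSO replicate 1, DMSO replicate 2 or BDE209 replicate 2, and with median-of-ratios scaling. Of 124 alternative values of the 9 differences, 120 moved by less than 1 SD between replicates of a group, an SD that includes the replicate 2 shift; TGFB2 (0.01) and SMAD7 (0.21) moved further in replicates 1 and 3 alone. The sign turned in 10: for INHBA and TGFB2 in replicates 1 and 3 alone (0.08 and 0.01, with and without the block), and without 1 library for INHBA (0.18), TGFB1 (0.09 and 0.01), ID1 (0.03 and 0.08) and ID3 (0.01). Leaving out 1 library, the differences ran from 0.21 to 1.33 for BMP2, 0.75 to 1.51 for LRRC32, -0.77 to 0.08 for ID1, -0.67 to -0.05 for ID2, -0.63 to 0.01 for ID3, -0.19 to 0.18 for INHBA, -0.38 to 0.09 for TGFB1, -0.23 to -0.04 for TGFB2 and 0.08 to 0.17 for SMAD7. The lowest value of BMP2 and of the ID genes and the highest of LRRC32 and TGFB1 came without BDE209 replicate 2. The sign turned in none for BMP2, LRRC32, SMAD7 and ID2. The fits without 1 library had no replicate block and left the replicate numbers uneven between treatments, so the replicate 2 shift enters them. TGFB1, whose sign turned there, was lower in every pair. With 3 libraries per group and no counts, small differences of low genes such as TGFB2 cannot be resolved.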
